A study of Mus musculus with 12 samples.

Results

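The expression of 36 genes of smooth muscle contraction was measured by RNA sequencing in normal mouse colon and in colonic tumours of 2 genotypes. The genes were taken by symbol from a list of contractile, cytoskeletal, calcium-handling and signalling genes of smooth muscle, with no threshold on a measured value. That list was chosen with earlier results of these data known. Its shares beside those of all genes are therefore descriptive. All 36 were found among the 24054 genes of the count files, and all 36 were among the 14860 genes with enough reads to be tested. The libraries form 3 groups of 4, all labelled with the immunodeficient mouse strain NSG, which lacks mature lymphocytes. The group N is normal colon of wild type genotype. The group BT-T holds tumours labelled BrafV600E;Tgfbr2-/-, that is, with an activating Braf mutation and without the TGF-beta receptor Tgfbr2. The group BTPRZ-T holds tumours with the same alleles and, in addition, Rnf43-/-/Znrf3-/-, which removes a pair of ubiquitin ligases that restrain Wnt receptors, and p16 Ink4a-/-, which removes a cell cycle inhibitor. The tumours grew from engrafted, gene-edited colonic organoids, which are cultures of gut epithelium, and the normal tissue was colon next to them. The genotype of the stroma, the age of the animals and whether replicates were separate animals are not given in the sources used here, so the p-values measure the spread between these libraries, which may be technical.

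Smooth muscle shortens when calcium enters the cell or leaves internal stores, binds calmodulin and activates myosin light chain kinase, which phosphorylates the regulatory light chain of myosin so that myosin heavy chain pulls on actin filaments. Myosin phosphatase reverses this step, and cyclic GMP signalling relaxes the cell. In the gut wall these proteins are made at high levels by the muscularis propria and the muscularis mucosae, and some of them, Acta2 and Tagln among them, also by pericytes and by myofibroblasts. Many of the genes are switched on by serum response factor and its partner myocardin, which bind a sequence known as the CArG box.

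The libraries held 15732004 to 26052772 reads assigned to genes on the expected strand. Values below are in CPM, reads of a gene relative to all gene reads of the library on a common scale with TMM factors, and follow the replicate order 1 to 4. Replicate 2 of N and replicates 1 and 4 of BTPRZ-T, called the 3 sparse libraries below, had the fewest genes detected. Ribosomal protein genes took 10.96% of the reads of N replicate 2, against 1.59 to 1.94% in the other 3 N libraries, 1.86 to 2.73% in BT-T, with 3.64 to 9.09% in BTPRZ-T. Long transcripts were low in N replicate 2: its deviation from the mean of all libraries changed by -0.787 log2 units per doubling of transcript length, against 0.182 to 0.286 in the other N libraries, 0.043 to 0.281 in BT-T, with -0.472 to 0.065 in BTPRZ-T. Results that rest on these libraries are given with and without them, and the part of library composition in the results was not tested beyond that.

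The promoters of 3 of the genes are shown because they hold CArG boxes, the sequence through which the program is known to be controlled. An exact box was taken as CC, then 6 letters that are A or T, then GG, and a CArG-like box as one in which 1 of those 6 letters is C or G. The like form was added to the search after the exact form had been counted. Each window runs from 250 bases before to 50 bases after the start annotated by RefSeq in GRCm38.p6, both strands were searched, and capitals mark the boxes. Myl9, the regulatory light chain, on chr2:156775214-156775513 of the plus strand, held an exact box that starts 161 bases before the start site and a CArG-like box 99 bases before it. Ldb3, a scaffold of actin anchoring sites, on chr14:34588558-34588857 of the minus strand, held 1 exact box 109 bases before the start. A window for another annotated start of Ldb3 held the same box 35 bases before that start. Acta2, the smooth muscle alpha actin, on chr19:34255324-34255623 of the minus strand, held CArG-like boxes 84 and 34 bases before the start.
Myl9: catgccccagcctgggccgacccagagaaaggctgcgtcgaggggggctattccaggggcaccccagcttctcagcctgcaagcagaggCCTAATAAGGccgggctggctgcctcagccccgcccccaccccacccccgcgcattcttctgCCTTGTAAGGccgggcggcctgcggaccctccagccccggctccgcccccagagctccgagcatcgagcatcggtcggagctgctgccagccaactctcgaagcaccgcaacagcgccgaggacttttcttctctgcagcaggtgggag
Ldb3: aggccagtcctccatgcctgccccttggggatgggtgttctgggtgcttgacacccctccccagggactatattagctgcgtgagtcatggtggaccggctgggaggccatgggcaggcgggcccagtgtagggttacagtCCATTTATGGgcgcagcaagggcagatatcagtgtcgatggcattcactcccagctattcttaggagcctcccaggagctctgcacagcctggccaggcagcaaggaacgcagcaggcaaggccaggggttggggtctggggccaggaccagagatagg
Acta2: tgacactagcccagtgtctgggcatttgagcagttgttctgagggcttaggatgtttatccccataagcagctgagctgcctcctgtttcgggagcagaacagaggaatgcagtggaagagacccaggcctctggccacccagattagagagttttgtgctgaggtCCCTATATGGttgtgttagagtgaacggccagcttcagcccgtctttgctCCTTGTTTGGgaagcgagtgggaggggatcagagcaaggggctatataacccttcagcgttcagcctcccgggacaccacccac
No window was found for Actg2, Tagln, Myh11, Svil, Nexn and Myocd, so these genes were not searched. Of the 30 members with a window in the RefSeq table, 2 held an exact box (6.67%, Myl9 and Ldb3), against 488 of 27025 genes (1.81%). A CArG-like box was present in 7 of the 30 (23.3%), which besides Myl9 and Acta2 were Cacna1c, Hspb6, Jph2, Pdlim3 and Synm, against 2620 of 27025 genes (9.69%). These are matches of letters in 1 window per transcript start, with no measurement of binding.

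Together the 36 genes took 1.38 to 2.44% of the gene reads of the N libraries (1.88% ± 0.532, SD, n = 4), 0.95 to 1.47% in BT-T (1.24% ± 0.214), then 0.213 to 0.978% in BTPRZ-T (0.571% ± 0.326). Mean levels ran N, then BT-T, then BTPRZ-T for 30 genes, while for 6 genes (Cald1, Pdlim7, Svil, Nexn, Kcnma1 and Prkg1) the mean was highest in BT-T. The share of all genes with that order of means is not given here. In bulk tissue, fewer smooth muscle cells and less RNA per cell cannot be told apart. In N the most abundant of the 36 transcripts per kilobase of transcript were Actg2 (1457 CPM per kb), Tagln (1370), Acta2 (968), Des (734) and Myl9 (577). Without N replicate 2 the values were 994 for Actg2, 864 for Acta2, 604 for Des, 594 for Tagln and 563 for Myl9, which put Tagln below Acta2 and Des. Actins and tropomyosins have close paralogs, and reads shared between them could be lost or misplaced in counting, which makes their levels less certain.

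**Figure D1:**
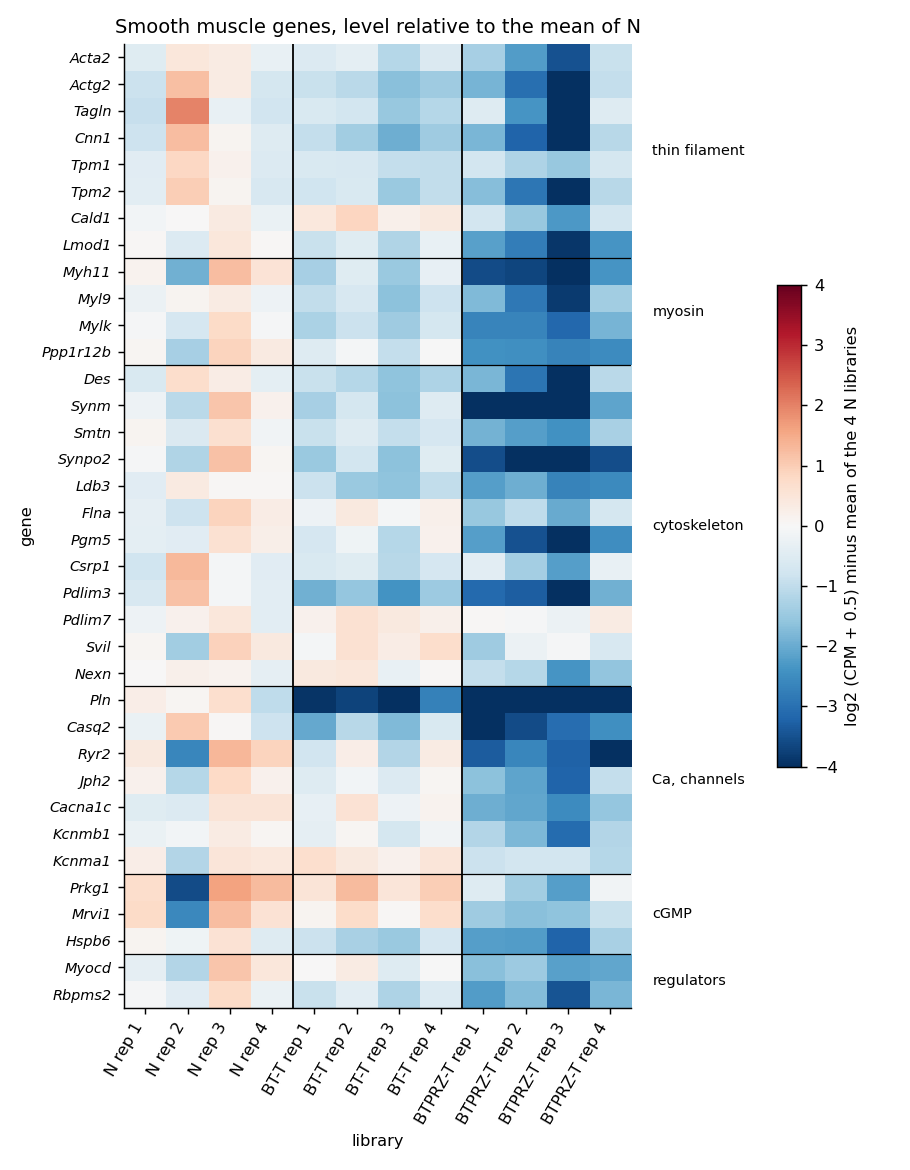
Heat map of the 36 smooth muscle genes (rows) in the 12 libraries (columns), coloured by log2 (CPM + 0.5) minus the mean of the 4 N libraries, with colours capped at 4 and -4. Most rows are lowest in BTPRZ-T, and N replicate 2 differs from the other N libraries in both directions.

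Compared with normal colon, BTPRZ-T tumours had lower levels of most of the contractile program. By edgeR's quasi-likelihood test with Benjamini-Hochberg adjustment over all tested genes, 27 of the 36 genes (75%) fell at an adjusted p under 0.05, and 0 rose. At an unadjusted p under 0.05 edgeR also found 0 higher (33 lower), as did DESeq2 (31 lower), voom (27 lower) and voom with sample quality weights (35 lower) at an adjusted p under 0.05. Over all tested genes, 6.18% were called lower in this comparison and 5.66% higher. The median log2 fold change of the 36 genes was -2.19, beside -0.10 for all tested genes, and 21 of the genes were more than 4-fold lower. No share over all genes is given for the 4-fold cut. The libraries of both groups did not overlap for 26 genes (72.2%), against 7.64% of all tested genes lower without overlap. Leaving out N replicate 2 gave 31 calls with a median of -2.21, and leaving out the 3 sparse libraries gave 34 calls with a median of -2.85. In both of these fits all 27 genes kept their call. The fit without the 3 sparse libraries kept only replicates 2 and 3 of BTPRZ-T. Their sums over the 36 genes were 4098 and 2121 CPM, below replicates 1 and 4 (6645 and 9031). That fit therefore compares N with the lowest BTPRZ-T libraries. Here and below, the shares of all tested genes called are those of the main fit. Shares under the other fits, tests and thresholds are not given, so changes in the counts are not shown to be particular to the 36 genes. With any 1 library left out, 20 of the 27 were still called, and a fit of N and BTPRZ-T alone called 15. The latter fit lost 12 calls: Acta2, Cald1, Casq2, Des, Flna, Jph2, Kcnmb1, Mrvi1, Myocd, Nexn, Ryr2 and Tpm2. The Ryr2 and Mrvi1 calls were also lost in voom.

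BT-T tumours compared with normal colon showed fewer called genes. In this comparison 3 genes fell (8.33%: Pln, Ldb3 and Pdlim3) and 0 rose, with 2.9% of all tested genes called lower and 5.67% higher. At an unadjusted p under 0.05 edgeR found 10 lower and 0 higher, while at an adjusted p DESeq2 called 7 lower and 0 higher, voom 3 lower and 0 higher, and voom with sample quality weights 17 lower and 2 higher. The log2 fold change was below 0 for 30 of 36 genes, with a median of -0.83 beside -0.10 for all genes. Libraries did not overlap for 10 genes (27.8%), against 9.02% of all tested genes. Without N replicate 2, 6 genes were called: Pln, Ldb3, Mylk, Ppp1r12b, Smtn and Synpo2. Without the 3 sparse libraries the count was 11, all lower, and included Myh11 and Myl9.

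Set directly against BT-T, BTPRZ-T tumours had 8 lower genes (22.2%) and 0 higher ones, where 0.599% of all tested genes were lower and 0.155% higher. Unadjusted, edgeR found 26 lower and 0 higher, and DESeq2, voom and voom with sample quality weights called 22, 9 and 36 lower, each with 0 higher. The 8 were Pln, Synpo2, Cacna1c, Ppp1r12b, Lmod1, Pgm5, Cald1 and Nexn, and all 8 were also called against N. The log2 fold change was below 0 for 36 of 36 genes, with a median of -1.44 beside -0.03 for all genes. Libraries did not overlap for 23 genes (63.9%), against 12.7% of all tested genes. This count depended on single libraries: it was 23 without N replicate 2, a library of neither group, 33 without the 3 sparse libraries, and 0 without BT-T replicate 2, BT-T replicate 4 or BTPRZ-T replicate 3. The 33 come from a fit that kept only replicates 2 and 3 of BTPRZ-T, the lowest of that group in summed level. Each of the 8 calls was lost without some of the BT-T or BTPRZ-T libraries, with the highest adjusted p between 0.0901 for Pln and 0.176 for Nexn and Cald1. The 3 comparisons share libraries, so their counts are not independent.

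**Figure D2:**
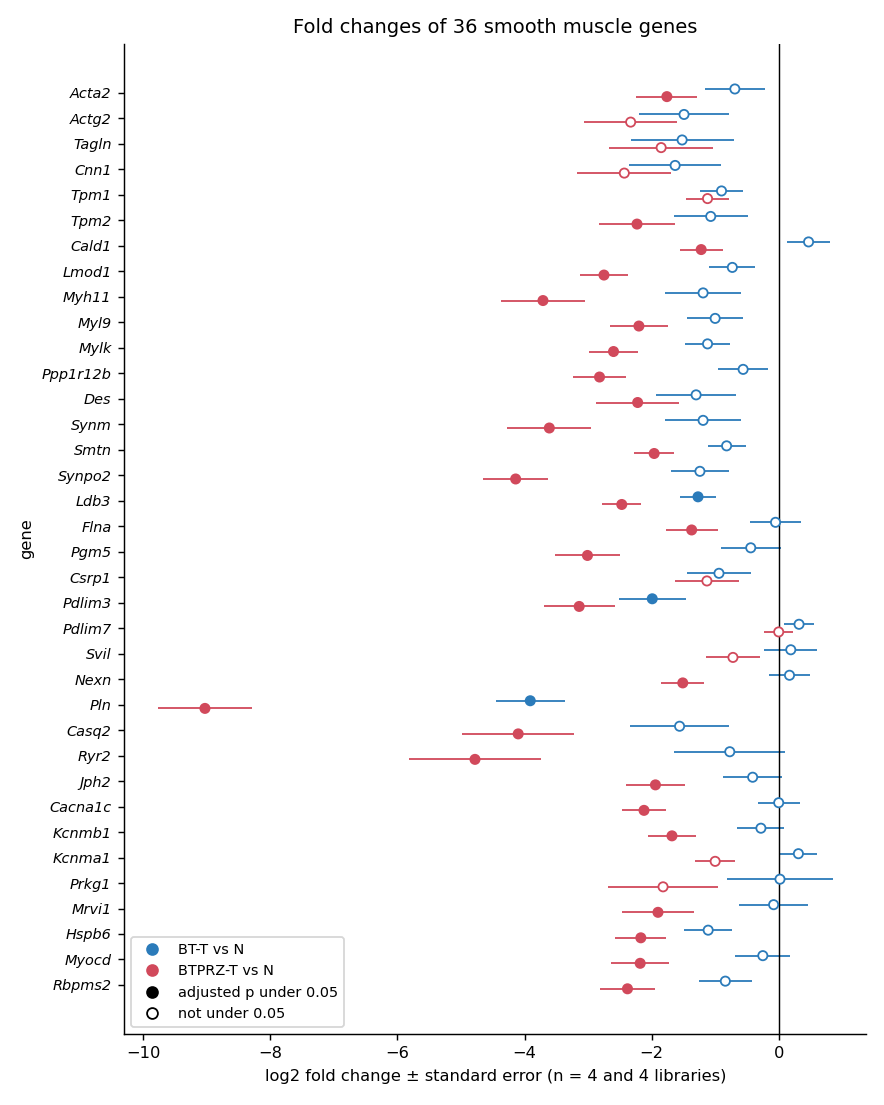
Log2 fold change with its standard error for each of the 36 genes, BT-T against N in blue and BTPRZ-T against N in red, with 4 libraries a group. Filled points have an adjusted p under 0.05: 3 for BT-T and 27 for BTPRZ-T, all to the left of 0.

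Among the 8 genes of the thin filament, 4 fell in BTPRZ-T against N (Lmod1, Tpm2, Acta2 and Cald1), 0 fell in BT-T against N, and 2 fell in BTPRZ-T against BT-T (Lmod1 and Cald1). In BT-T against N, 2 of the 8 were lower at an unadjusted p under 0.05 in edgeR, and DESeq2, voom and voom with quality weights called 1, 0 and 2 lower. Acta2 was at 1348, 2605, 2400 and 1525 CPM in N, at 1290, 1460, 865 and 1262 in BT-T, with 757, 399, 168 and 1010 in BTPRZ-T. All 4 BTPRZ-T values lay below all 4 N values, whereas BT-T replicate 2 lay inside the N range. The log2 fold change against N was -1.76 ± 0.48 (SE, adjusted p = 0.0324) in BTPRZ-T and -0.69 ± 0.47 (adjusted p = 0.392) in BT-T. The BTPRZ-T call was lost without N replicate 3, BT-T replicate 4 or BTPRZ-T replicate 2, with an adjusted p of up to 0.093. Actg2, the gamma actin of visceral smooth muscle, was at 907, 3791, 2054 and 1015 CPM in N, 874, 775, 518 and 608 in BT-T, with 447, 200, 43.4 and 849 in BTPRZ-T. Neither tumour group overlapped N for this gene, but the values spread widely within N and within BTPRZ-T, and the test did not call it (-2.33 ± 0.73, adjusted p = 0.0572, in BTPRZ-T). Tagln, which encodes the actin-bundling protein transgelin, was at 772, 5896, 1192 and 878 CPM in N, 973, 879, 518 and 671 in BT-T, with 1035, 287, 68.0 and 1038 in BTPRZ-T. Replicate 2 of N stood apart from the other N libraries, and replicates 1 and 4 of BTPRZ-T lay inside the N range (-1.85 ± 0.82, adjusted p = 0.178). Without N replicate 2 the Tagln difference between BTPRZ-T and N shrank to -0.64 (adjusted p = 0.472).

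Cnn1, the calponin that slows the actomyosin cycle, was at 622, 2644, 1217 and 775 CPM in N, 582, 421, 286 and 414 in BT-T, with 314, 120, 25.4 and 517 in BTPRZ-T. Every tumour library lay below every N library, yet neither difference was called, with an adjusted p of 0.191 for BT-T and of 0.052 for BTPRZ-T. Cald1, a caldesmon that holds actin away from myosin, had its highest mean in BT-T. Its levels were 502, 552, 702 and 452 CPM in N, 737, 980, 633 and 709 in BT-T, with 324, 192, 110 and 324 in BTPRZ-T. BTPRZ-T was the low group for Cald1, at -1.22 ± 0.34 (adjusted p = 0.0361) against N and -1.69 ± 0.34 (adjusted p = 0.0487) against BT-T. The call against N was lost without N replicate 1 or 3, BT-T replicate 1, 3 or 4, or BTPRZ-T replicate 2 or 3, with an adjusted p of up to 0.101. Lmod1, a leiomodin that seeds new actin filaments, had 85.2, 55.9, 112 and 85.0 CPM in N, 43.6, 58.4, 35.5 and 66.3 in BT-T, with 17.8, 11.6, 5.12 and 15.8 in BTPRZ-T. The BTPRZ-T libraries were below all others, with a log2 fold change of -2.75 ± 0.38 (adjusted p = 0.00102) against N. Tpm2, a muscle tropomyosin, ranged from 392 to 1197 CPM in N, 217 to 404 in BT-T, with 27.7 to 280 in BTPRZ-T (-2.23 ± 0.60, adjusted p = 0.0313, against N). Its call was lost without N replicate 3 or BTPRZ-T replicate 1 or 2 (adjusted p of up to 0.088). Tpm1 was not called (-1.12 ± 0.34, adjusted p = 0.0509), although its BTPRZ-T values of 467 to 820 CPM all lay below the N values of 913 to 2402. Without N replicate 2 its adjusted p was 0.0353.

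All 4 genes of the myosin motor and its switch fell in BTPRZ-T against N, and 1 of them, Ppp1r12b, against BT-T. Myh11, the smooth muscle myosin heavy chain and the most specific marker of the lineage, was at 1810, 434, 3891 and 2378 CPM in N, 657, 1181, 588 and 1301 in BT-T, with 137, 127, 68.3 and 316 in BTPRZ-T. Every BTPRZ-T library was below every other library, and the log2 fold change against N was -3.71 ± 0.66 (adjusted p = 0.00366). BT-T overlapped N only through N replicate 2, the lowest N library for this long transcript (-1.19 ± 0.60, adjusted p = 0.25). Mylk, the myosin light chain kinase, was at 997, 655, 1784 and 1004 CPM in N, 429, 579, 386 and 644 in BT-T, with 166, 166, 117 and 284 in BTPRZ-T. The 3 groups did not overlap for Mylk: it fell by 2.60 ± 0.38 on the log2 scale in BTPRZ-T against N (adjusted p = 0.00133), while BT-T was not called (-1.12 ± 0.36, adjusted p = 0.0772). Ppp1r12b, a targeting subunit of the opposing myosin phosphatase, was at 31.9, 11.7, 57.1 and 38.6 CPM in N, 20.8, 28.6, 15.2 and 29.6 in BT-T, with 5.29, 5.07, 4.35 and 4.93 in BTPRZ-T. The BTPRZ-T libraries were close to each other and below all others, with -2.82 ± 0.42 (adjusted p = 0.00146) against N and -2.26 ± 0.41 (adjusted p = 0.0353) against BT-T. Myl9, whose promoter is printed above, ranged from 547 to 803 CPM in N, 204 to 410 in BT-T, with 44.6 to 243 in BTPRZ-T, and fell in BTPRZ-T against N (-2.20 ± 0.46, adjusted p = 0.00917).

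**Figure D3:**
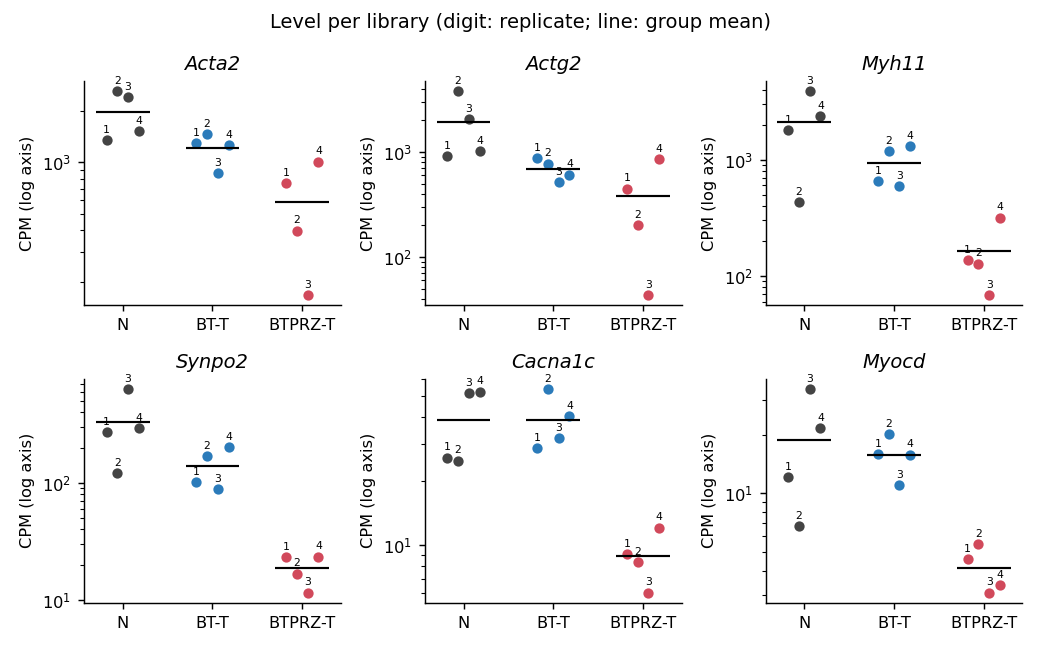
CPM of 6 genes in each of the 12 libraries on log axes, with the replicate digit above each point and a line at the group mean. Acta2 and Actg2 have group means in the order N, BT-T, BTPRZ-T with wide spread in BTPRZ-T, whereas Cacna1c and Myocd overlap between N and BT-T and are low in BTPRZ-T.

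Of the 12 genes of the cytoskeleton and its anchoring sites, 9 fell in BTPRZ-T against N, 2 in BT-T against N and 3 in BTPRZ-T against BT-T. Synpo2, an actin-bundling protein of dense bodies, was at 273, 120, 634 and 294 CPM in N, 101, 169, 88.8 and 200 in BT-T, with 23.3, 16.8, 11.5 and 23.4 in BTPRZ-T. The BTPRZ-T values were below all others, with -4.14 ± 0.51 (adjusted p = 0.000559) against N and -2.90 ± 0.48 (adjusted p = 0.0285) against BT-T. Des, the muscle intermediate filament protein desmin, was at 1354, 3401, 2538 and 1592 CPM in N, 1124, 937, 683 and 874 in BT-T, with 580, 272, 57.4 and 991 in BTPRZ-T. Both tumour groups lay below N without overlap, and only the BTPRZ-T difference was called, at -2.22 ± 0.65 (adjusted p = 0.0434). That call was lost on leaving out N replicate 1, 3 or 4, BTPRZ-T replicate 1 or 2, or any BT-T library, with an adjusted p of up to 0.114. Synm, which joins desmin filaments, ranged from 146 to 667 CPM in N, 99.3 to 220 in BT-T, with 8.65 to 71.1 in BTPRZ-T, a log2 fold change of -3.61 ± 0.66 (adjusted p = 0.00444) in BTPRZ-T against N. Smtn, smoothelin of contractile smooth muscle, was at 207, 128, 298 and 174 CPM in N, 105, 134, 99.3 and 121 in BT-T, with 51.6, 41.6, 35.6 and 78.0 in BTPRZ-T. Every BTPRZ-T library was below all others (-1.96 ± 0.31, adjusted p = 0.00197, against N).

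Ldb3, shown above with its CArG box, was at 18.6, 32.8, 26.1 and 26.1 CPM in N, 13.7, 8.76, 7.99 and 12.5 in BT-T, with 5.10, 6.17, 3.53 and 3.93 in BTPRZ-T. The 3 groups were fully separate, and the gene fell in both tumour groups against N, at -1.27 ± 0.29 (adjusted p = 0.0189) for BT-T and -2.47 ± 0.31 (adjusted p = 0.000559) for BTPRZ-T. Without BT-T replicate 2 or 3 the BT-T call was lost, with an adjusted p of up to 0.0789. Pdlim3, a PDZ and LIM domain partner of alpha actinin, was at 96.2, 340, 142 and 113 CPM in N, 39.5, 51.6, 28.4 and 55.1 in BT-T, with 17.0, 14.8, 6.61 and 39.8 in BTPRZ-T. It fell in BT-T (-1.99 ± 0.53, adjusted p = 0.0374) as well as in BTPRZ-T (-3.14 ± 0.56, adjusted p = 0.00355) against N. The BT-T call was lost on leaving out N replicate 2 or 3, BTPRZ-T replicate 2 or any BT-T library, with an adjusted p of up to 0.119. Pgm5, an adhesion protein of smooth muscle, was at 320, 312, 642 and 501 CPM in N, 265, 379, 192 and 472 in BT-T, with 90.9, 37.8, 17.4 and 74.4 in BTPRZ-T. BT-T lay within or below the N range for Pgm5, and BTPRZ-T was below both groups (-3.01 ± 0.51, adjusted p = 0.00274, against N, and -2.57 ± 0.50, adjusted p = 0.0423, against BT-T). Flna, the actin crosslinker filamin A that many cell types make, was at 1307, 945, 3156 and 2089 CPM in N, 1478, 2218, 1595 and 1958 in BT-T, with 592, 843, 413 and 1048 in BTPRZ-T. BTPRZ-T overlapped N through N replicate 2, and the call was close to the threshold (-1.37 ± 0.41, adjusted p = 0.0467). It was lost without any 1 library other than N replicate 2 and BTPRZ-T replicate 4, with an adjusted p of up to 0.146. Nexn, an actin-binding protein, ranged from 12.4 to 18.3 CPM in N, 12.8 to 22.1 in BT-T, with 2.70 to 7.94 in BTPRZ-T, and fell in both comparisons that involve BTPRZ-T (-1.51 ± 0.34, adjusted p = 0.0139, against N). The other 3 cytoskeletal genes, Csrp1, Pdlim7 and Svil, were called in none of the comparisons. Pdlim7 had 58.6 to 108 CPM in N, 88.0 to 121 in BT-T, with 66.8 to 99.5 in BTPRZ-T, and was the gene of the list with the least difference between BTPRZ-T and N (adjusted p = 0.997).

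Of the 7 genes of calcium handling and ion channels, 6 fell in BTPRZ-T against N, 1 in BT-T against N and 2 in BTPRZ-T against BT-T. Pln, phospholamban, restrains the calcium pump of the sarcoplasmic reticulum and was the 1 gene called in all 3 comparisons. It was at 34.1, 29.5, 45.3 and 13.8 CPM in N, 1.39, 1.70, 1.17 and 3.90 in BT-T, with 0.0645, 0.0957, 0.0551 and 0 in BTPRZ-T. These values rest on 2000 reads in N, 180 in BT-T, with 4 in BTPRZ-T, where the 0 allows up to 0.131 CPM. The log2 fold change was -3.91 ± 0.54 (adjusted p = 0.00119) in BT-T and -9.03 ± 0.74 (adjusted p = 0.000105) in BTPRZ-T against N, and -5.12 ± 0.70 (adjusted p = 0.0159) between the tumour groups. The last sizes rest on few reads: over the other settings tried, the BTPRZ-T to N value ran from -9.49 to -8.19. Casq2, a calcium store protein, was at 8.12, 21.1, 10.3 and 5.40 CPM in N, 2.02, 4.38, 2.54 and 6.33 in BT-T, with 0, 0.383, 0.771 and 1.40 in BTPRZ-T. It fell in BTPRZ-T against N (-4.10 ± 0.88, adjusted p = 0.0103), and its 0 allows up to 0.194 CPM. Ryr2, a calcium release channel with a very long transcript, was at 11.2 to 21.4 CPM in N apart from replicate 2 at 0.948, 3.46 to 10.7 in BT-T, with 0 to 0.957 in BTPRZ-T (-4.78 ± 1.04, adjusted p = 0.0112, against N). The 0, in BTPRZ-T replicate 4, allows up to 0.131 CPM, and N replicate 2 lay inside the BTPRZ-T range.

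Jph2, which ties the store to the plasma membrane, was at 70.6, 28.3, 108 and 70.2 CPM in N, 43.5, 57.6, 42.3 and 65.5 in BT-T, with 19.9, 14, 6.28 and 32.1 in BTPRZ-T. BTPRZ-T replicate 4 overlapped N replicate 2, and the gene was called lower in BTPRZ-T (-1.94 ± 0.47, adjusted p = 0.0201). Without N replicate 3 or BTPRZ-T replicate 2 the adjusted p reached 0.0604. Cacna1c, the pore of the L-type calcium channel through which gut muscle admits calcium, was at 25.8, 25.0, 51.8 and 52.6 CPM in N, 28.7, 54.1, 31.8 and 40.3 in BT-T, with 9.10, 8.33, 6.0 and 12.1 in BTPRZ-T. N and BT-T covered nearly the same range, and every BTPRZ-T library was below it, with -2.12 ± 0.35 against N (adjusted p = 0.00227) and -2.12 ± 0.35 against BT-T (adjusted p = 0.0285). The BK potassium channel, which opens on calcium and damps contraction, has its pore encoded by Kcnma1 and its smooth muscle subunit by Kcnmb1. Kcnma1 was at 72.8, 26.8, 84.6 and 81.0 CPM in N, 95.9, 78.9, 68.9 and 85.0 in BT-T, with 33.5, 35.8, 36 and 27.4 in BTPRZ-T. BTPRZ-T lay below BT-T and below N apart from N replicate 2, and Kcnma1 was just short of the threshold against N (-1.0 ± 0.31, adjusted p = 0.0529). It was called without that library (adjusted p = 0.000269) and by DESeq2 with it (adjusted p = 0.00844). Kcnmb1 fell in BTPRZ-T against N (-1.68 ± 0.38, adjusted p = 0.0131), from 36.2 to 54.9 CPM in N to 4.79 to 19.3 CPM.

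Of the 3 genes of cyclic GMP relaxation, 2 fell in BTPRZ-T against N, Hspb6 and Mrvi1. Hspb6, a small heat shock protein phosphorylated during relaxation, was at 67.8, 56.0, 93.0 and 43.1 CPM in N, 34.5, 25.4, 21.9 and 39.0 in BT-T, with 13.3, 13, 6.28 and 25.2 in BTPRZ-T. Both tumour groups were below N without overlap, and the log2 fold change was -2.17 ± 0.40 (adjusted p = 0.00434) in BTPRZ-T and -1.11 ± 0.38 (adjusted p = 0.0995) in BT-T. Mrvi1, a substrate of the cyclic GMP kinase at the calcium store, was at 93.9, 8.93, 131 and 81.9 CPM in N, 59.2, 93.0, 56.6 and 90.7 in BT-T, with 20.3, 17.2, 17.8 and 29.3 in BTPRZ-T. N replicate 2 was below every other library for Mrvi1, and the BTPRZ-T call against N was near the threshold (-1.90 ± 0.56, adjusted p = 0.0467). It was lost without any 1 library other than N replicate 2, with an adjusted p of up to 0.131. Prkg1, the kinase itself, had 13 to 24.7 CPM in N apart from replicate 2 at 0.203, 11.2 to 19.7 in BT-T, with 1.32 to 7.03 in BTPRZ-T, and was not called (adjusted p = 0.212 against N). It was called without N replicate 2 (adjusted p = 0.0048) and, with all libraries, by voom with sample quality weights (adjusted p = 0.000557).

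Both regulators fell in BTPRZ-T against N. Neither passed edgeR's test in BTPRZ-T against BT-T with all libraries, and both did without N replicate 2 (adjusted p = 0.00634 for Myocd and 0.0241 for Rbpms2), as well as in DESeq2 (adjusted p = 0.00112 and 0.0092). Myocd, the myocardin that drives the program with serum response factor, was at 12.1, 6.77, 34.4 and 21.7 CPM in N, 15.9, 20.2, 11 and 15.8 in BT-T, with 4.58, 5.50, 3.08 and 3.36 in BTPRZ-T. N and BT-T overlapped, and BTPRZ-T was below both, with -2.18 ± 0.46 (adjusted p = 0.00918) against N and -1.93 ± 0.45 (adjusted p = 0.0734) against BT-T. In edgeR's fit of N and BTPRZ-T alone the Myocd call against N was lost (adjusted p = 0.0509). Rbpms2, an RNA-binding protein of visceral smooth muscle, was at 21.4, 16.1, 38.5 and 18.4 CPM in N, 11.8, 16.5, 9.08 and 15.2 in BT-T, with 4.32, 6.32, 1.60 and 5.89 in BTPRZ-T. BTPRZ-T again held the 4 lowest values (-2.38 ± 0.44, adjusted p = 0.00463, against N).

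The libraries of a group differed together across many of the genes. The same counts over all tested genes are not given, so these orders are not shown to be particular to the 36 genes. Within BTPRZ-T, replicate 3 had the lowest value for 30 of the 36 genes and replicate 4 the highest for 23. Within BT-T, replicate 3 was lowest for 30 genes. In N, replicate 2 was above the other 3 N libraries for 12 genes and below them for 18, with the log2 ratio to their mean running from 2.64 for Tagln, 1.70 for Csrp1 and 1.60 for Cnn1 down to -2.63 for Myh11, -3.52 for Mrvi1, -4.09 for Ryr2 and -6.56 for Prkg1. Over the 36 genes this ratio went with transcript length (Spearman's rho -0.77, a description over genes that share the same libraries). For the log2 fold changes of BTPRZ-T against N, rho with length was -0.06, for BT-T against N it was 0.43, and for BTPRZ-T against BT-T it was -0.49. Without N replicate 2 the values were -0.31, 0.06 and -0.49, and without the 3 sparse libraries 0.02, 0.06 and -0.08. After a length trend had been removed from each library, the 3 values were 0.10, 0.17 and 0.05, and the medians over the genes were -2.29, -0.81 and -1.34. Without that trend Cald1 and Flna lost their call against N, and Cald1 and Cacna1c theirs against BT-T, where the log2 fold change of Cacna1c was -1.22 (adjusted p = 0.198).

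**Figure D4:**
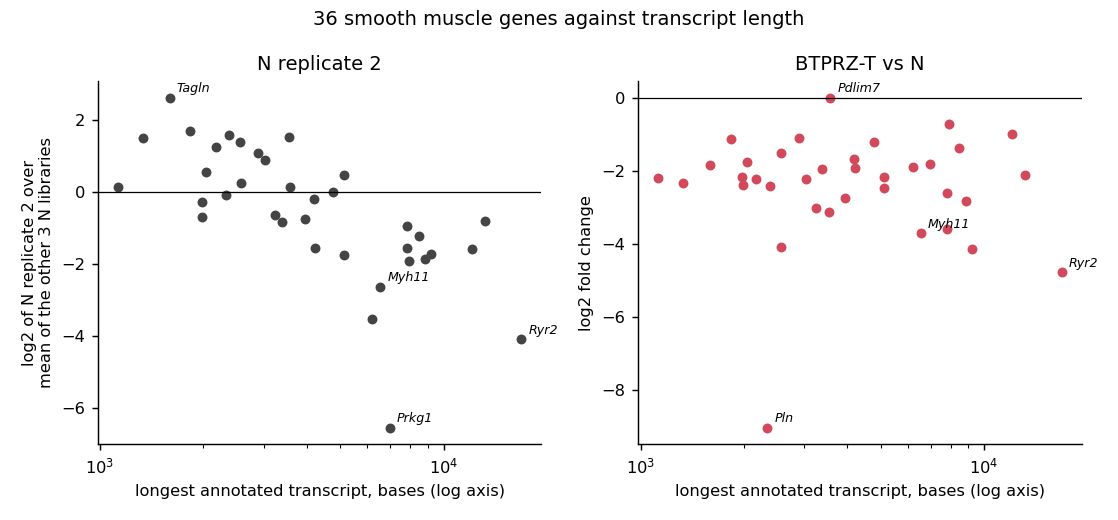
For the 36 genes against the length of the longest annotated transcript (log axis): left, log2 of N replicate 2 over the mean of the other 3 N libraries, right, the log2 fold change of BTPRZ-T against N. The left values fall with length from 2.64 for Tagln to -6.56 for Prkg1, and the right values have a rho of -0.06 with length (-0.31 without N replicate 2).

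The balance among contractile genes was measured within each library as a log2 ratio of reads, which does not depend on the scaling between libraries. Such a ratio can still depend on a library's length trend. The longest annotated transcripts have 6549 bases for Myh11, 2035 for Acta2 and 1333 for Actg2. The Actg2 to Acta2 ratio was -0.57, 0.54, -0.23 and -0.59 in N, -0.56, -0.91, -0.74 and -1.05 in BT-T, and -0.76, -0.99, -1.95 and -0.25 in BTPRZ-T. Its group means were -0.21 ± 0.53 (SD), -0.82 ± 0.21 and -0.99 ± 0.71, and the groups overlapped in each comparison. The differences from N were -0.61 in BT-T (exact two-sided permutation p = 0.0857, adjusted 0.214 over 6 tests) and -0.78 in BTPRZ-T (exact permutation p = 0.114, adjusted 0.214). The Myh11 to Acta2 ratio was 0.43, -2.58, 0.70 and 0.64 in N, -0.97, -0.31, -0.56 and 0.04 in BT-T, and -2.47, -1.65, -1.30 and -1.68 in BTPRZ-T. All BTPRZ-T ratios lay below all BT-T ratios, with a difference of -1.32 (exact permutation p = 0.0286, the smallest that 4 against 4 libraries allow, adjusted 0.171). Against N, BTPRZ-T differed by -1.57 (exact permutation p = 0.143, adjusted 0.214), with N replicate 2 below every BTPRZ-T library, and by -2.36 without that replicate (exact permutation p = 0.0571, the smallest that 3 against 4 allow).

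In a further list of 30 smooth muscle genes (receptors, adhesion, dystrophin complex, ion channels and coregulators), 0 were called in BT-T against N by edgeR (3 lower and 1 higher at an unadjusted p under 0.05), 9 fell in BTPRZ-T against N, and 1 fell in BTPRZ-T against BT-T, with 0 higher in each comparison. DESeq2 called 2, 14 and 11 lower and 1, 0 and 0 higher, voom 0, 9 and 1 lower and 0 higher, and voom with quality weights 8, 21 and 19 lower and 3, 2 and 2 higher. Without N replicate 2 edgeR called 1, 14 and 11 lower and 0, 1 and 0 higher. Their median log2 fold changes were -0.13, -0.84 and -0.63. Gucy1a3, a subunit of the nitric oxide receptor that makes cyclic GMP, was at 35.2, 25.0, 48.7 and 17.4 CPM in N, 28.2, 44.4, 25.7 and 33.1 in BT-T, with 6.65, 6.22, 6.0 and 2.14 in BTPRZ-T. It was the gene of this list that fell against both groups (-2.59 ± 0.41, adjusted p = 0.00199, against N and -2.65 ± 0.41, adjusted p = 0.0274, against BT-T). Also lower against N were Dmd, dystrophin (-1.59 ± 0.32, adjusted p = 0.00832), and Tacr2, the neurokinin receptor of gut muscle (-3.98 ± 0.85, adjusted p = 0.0104). Others that fell against N included Itga8, Sgca, Chrm2, Fhl1 and Ppp1cb. Serum response factor itself, Srf, and the related coactivators Mkl1 and Mkl2 were not called in BTPRZ-T against N (adjusted p = 0.168, 0.901 and 0.957). Their log2 fold changes were -0.65 ± 0.28, 0.11 ± 0.37 and -0.06 ± 0.46. Srf had an unadjusted p of 0.0394 in edgeR. It was at 105, 52.7, 161 and 117 CPM in N, with 59.4, 66.8, 83.3 and 68.6 in BTPRZ-T. For Srf the groups overlapped only through N replicate 2.

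Non-muscle counterparts of the contractile proteins, made by most cells, were followed beside the 36 genes. Of 12 such genes 0 were lower in edgeR's test of any comparison, with 1 lower at an unadjusted p under 0.05 (BTPRZ-T against BT-T). On leaving out N replicate 2, edgeR called 1 lower and 1 higher in BTPRZ-T against BT-T, and the number higher went from 1 to 4 in BT-T against N and from 2 to 5 in BTPRZ-T against N. Tpm3, a cytoplasmic tropomyosin, rose in both tumour groups against N, from 80.5 to 100 CPM in N to 167 to 235 in BT-T (1.18 ± 0.21, adjusted p = 0.00399), then 283 to 386 in BTPRZ-T (1.90 ± 0.21, adjusted p = 0.000313). Cnn2, the non-muscle calponin, rose in BTPRZ-T (1.45 ± 0.36, adjusted p = 0.0225). The summed level of the 12 genes was 6748 to 8896 CPM in N, 7656 to 8647 in BT-T, with 7747 to 8537 in BTPRZ-T, so the groups overlapped.

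**Figure D5:**
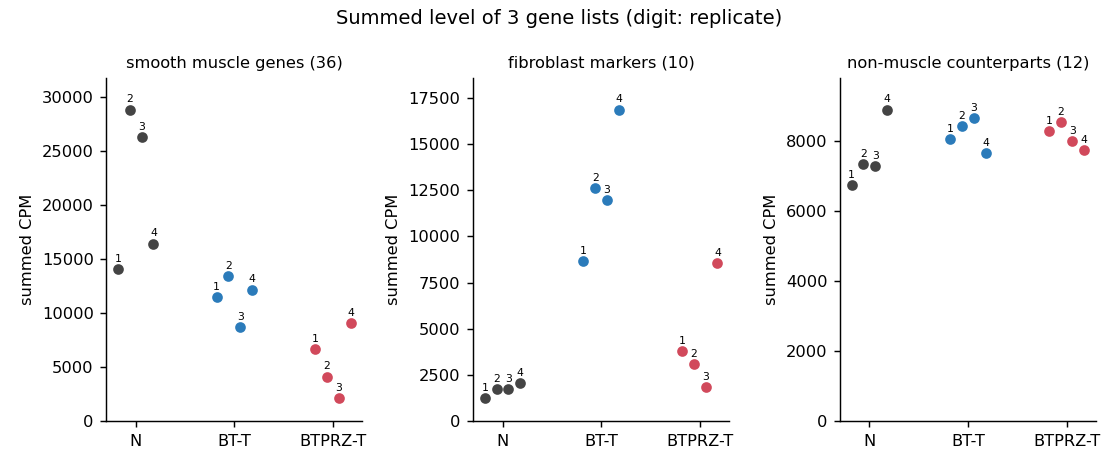
Summed CPM of the 36 smooth muscle genes, of 10 fibroblast markers and of 12 non-muscle counterparts in each library, with the replicate digit above each point and axes from 0. The smooth muscle sums lie between 14026 and 28840 in N and between 2121 and 9031 in BTPRZ-T. The fibroblast sums, mostly reads of collagen genes, are highest in BT-T, and the non-muscle sums overlap.

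Markers of other cell types were measured in the same libraries. Of 10 fibroblast markers 7 rose in BT-T against N and 4 in BTPRZ-T against N by edgeR. In BTPRZ-T against N edgeR called 0 lower, with 1 lower at an unadjusted p under 0.05, and DESeq2, voom and voom with quality weights called 1, 0 and 1 lower. The log2 fold changes there were -0.04 for Pdgfra, -0.07 for Postn and -1.59 for Dpt, and above 0 for the other fibroblast markers. Set against BT-T, the median log2 fold change of BTPRZ-T was -1.38 over the fibroblast, -1.14 over the pericyte and -1.21 over 5 endothelial markers, beside -1.44 for the 36 genes. In that comparison edgeR called 0 lower in these 3 lists (7, 5 and 4 at an unadjusted p under 0.05), and 10, 5 and 4 without the 3 sparse libraries. DESeq2, voom and voom with quality weights called 6, 1 and 10 fibroblast markers lower there, 2 to 7 pericyte and 0 to 5 endothelial ones. The summed level of the fibroblast markers was 1253 to 2065 CPM in N, 8648 to 16882 in BT-T, with 1817 to 8570 in BTPRZ-T. The collagen genes Col1a1, Col1a2 and Col3a1, with BT-T means of 3180, 2754 and 4660 CPM, made up most of that sum. Within BTPRZ-T the order of replicates by this sum, 4, 1, 2 and 3, was that of the smooth muscle sum. Of 7 pericyte markers, Rgs5 fell in both tumour groups against N (-0.93 ± 0.26, adjusted p = 0.0482, and -2.17 ± 0.27, adjusted p = 0.000609), while Pdgfrb (2.15 ± 0.34, adjusted p = 0.00248) and Abcc9 (2.00 ± 0.41, adjusted p = 0.0103) rose in BT-T. The pericyte sum was 257 to 512 CPM in N, 513 to 838 in BT-T, with 233 to 414 in BTPRZ-T. Colon epithelium markers, 6 genes with 1 called (Krt18, higher in BTPRZ-T), summed to 9607 to 11592 CPM in N, 8199 to 9776 in BT-T, with 6990 to 15189 in BTPRZ-T, so the labelled tissue carried its epithelial markers in every library.

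Cells that lie in the muscle wall with smooth muscle were also followed. Of 6 enteric neuron markers, Nos1 and Elavl4 fell in BTPRZ-T against N by edgeR. DESeq2, voom and voom with quality weights called 3, 0 and 5 lower there, and edgeR called 4 without N replicate 2. Nos1, which makes nitric oxide in relaxing motor neurons, was at 4.61, 0.135, 33.3 and 17.1 CPM in N and at 0, 0.0479, 0 and 0 in BTPRZ-T (adjusted p = 0.00313). The sum of the 6 genes was 18 to 102 CPM in N, 17.6 to 52.8 in BT-T, with 4.24 to 22.1 in BTPRZ-T. Of 4 enteric glia markers, Sox10 fell in BTPRZ-T against N (-4.13 ± 1.16, adjusted p = 0.0367). Of 3 markers of interstitial cells of Cajal, the pacemakers of gut muscle, 0 were called by edgeR with all libraries (1 lower at an unadjusted p under 0.05 in each comparison, and 1 higher in BT-T against N). With N replicate 2 left out, edgeR called 1 lower in each comparison, and DESeq2 called 1 lower in each comparison with N. Their sum was 94.1 to 523 CPM in N, 393 to 485 in BT-T, with 176 to 343 in BTPRZ-T. Skeletal muscle markers summed to 26.3 to 65.4 CPM in N, 25.5 to 40.3 in BT-T, with 13 to 28.4 in BTPRZ-T over 10 genes, with Ckm lower in both tumour groups, Tnni2 higher in both, and Myog at 0 reads. Cardiac markers summed to 1.27 to 12.2 CPM over all libraries. The part of these other cell types in the levels of the 36 genes was not tested.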

How the data were processed

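Poly-A RNA from 12 colon and tumour samples was sequenced as stranded single-end reads of 100 bases, per the labels' protocols. The submitters' processing notes name bcl2fastq 2.20, STAR 2.4.2a, HTSeq, edgeR 3.16.5, limma and the build mm10, with no role for each. The deposited values are whole-number read counts per gene made by the authors, in the gene count layout of STAR, of which the column for the expected strand was used. The other strand held 0.819 to 0.994% of the reads. Rows that name no gene were left out.

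Counts were scaled by TMM, filtered with filterByExpr by group and fitted in edgeR 4.0.16 (R 4.3.3) with 1 mean per group over all 12 libraries, by robust quasi-likelihood F tests, two-sided. The p-values were adjusted by Benjamini-Hochberg over 14860 genes and called under 0.05. The common biological coefficient of variation was 0.501. The standard error is the log2 fold change divided by the root of F. A value of 0 allows up to 3 counts, and such limits cover counting error only. Ratios were compared by exact permutation over libraries. Alternatives used DESeq2 1.42.0, limma 3.58.1 (voom) and other filters, scalings and library sets, and the fits were tested on simulated data. Transcript lengths came from GENCODE M21 and promoters from RefSeq.

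The member genes and other lists were chosen with earlier results of these data known. Values in every library are given for the defining members, the 12 with the lowest adjusted p and the 2 most abundant in each role, and from the other lists for at most the 4 called genes with the lowest adjusted p.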

Additional observations from a re-analysis of the deposited data

Results flagged for a closer look

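In 2 of 108 sets of 4 libraries, 1 library lay so far from the rest that its gap to the nearest, over the whole range, passed Dixon's 95% critical value, which chance does in about 1 in 20 sets. Tagln was at 5896 CPM in N replicate 2 and at 772 to 1192 in the other 3 N libraries, a ratio of 0.918. Synm was at 71.1 CPM in BTPRZ-T replicate 4 and at 8.65 to 19.2 in the other 3 BTPRZ-T libraries, a ratio of 0.832.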

How the results depend on the processing

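The count of members called in BT-T against N, 3 as reported, was 7 with DESeq2, 19 with voom and sample quality weights (17 lower and 2 higher), 5 with a length trend removed, 11 without the 3 libraries with the fewest genes detected, and 1 to 6 with each library left out. In BTPRZ-T against N, 27 as reported, it was 15 with the 2 groups alone and 20 to 31 with each library left out. In BTPRZ-T against BT-T, 8 as reported, it was 22 with DESeq2, 36 with voom and quality weights, 22 with the 2 groups alone, 33 without the 3 libraries with the fewest genes detected, and 0 to 23 with each library left out. The cause of these shifts was not tested. The shares of all tested genes called under these settings are not given, so the shifts are not shown to be particular to the members. The fit without the 3 libraries with the fewest genes detected kept only the BTPRZ-T libraries with the lowest summed level of the members. Of the calls, 15 of the 27 in BTPRZ-T against N, 1 of 3 in BT-T against N (Pln) and 0 of 8 in BTPRZ-T against BT-T were kept in every alternative run.

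The difference in Kcnma1 between BT-T and N, not called, went from 0.31 to -0.01 on the log2 scale with a length trend removed. The Myh11 to Acta2 ratio of BT-T against N ran from -1.04 to 0.06 with each library left out, with the sign turned without N replicate 3 (0.06) or 4 (0.04). The Actg2 to Acta2 ratio of BTPRZ-T against BT-T ran from -0.42 to 0.15, the latter without BTPRZ-T replicate 3. The Myh11 to Acta2 ratio of BTPRZ-T against BT-T ran from -1.5 to -1.09, where an exact permutation p cannot go below 0.0571, and was -1.02 without the 3 libraries with the fewest genes detected.

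With the replicate number as a block, the counts were 3, 21 and 0 in the 3 comparisons. The labels do not say that a number marks shared animals or days, and deviations of same-numbered libraries correlated by -0.297 to 0.315. Between the tumour groups 8 of 8 libraries correlated best with their own number, and 1 of 8 in each comparison with N, a hint from the data and not the design. Genes with few reads, such as Pln and Ryr2 in BTPRZ-T, are limited by depth in the size of their fold change.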

Other observations

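Vessel, immune and serosal markers were measured in the same libraries. Of 5 endothelial markers, Cdh5 and Pecam1 were called higher in BT-T against N and Cdh5 in BTPRZ-T, and the sum of the 5 was 78.7 to 178 CPM in N, 282 to 598 in BT-T, with 225 to 447 in BTPRZ-T. Of 4 macrophage markers, Emr1, Csf1r and Cd68 were called higher in BT-T and Cd68 and Emr1 in BTPRZ-T, and the sum was 111 to 297 CPM in N, 343 to 505 in BT-T, with 162 to 699 in BTPRZ-T. Of 4 markers of mesothelium, the outer lining of the gut, Msln was called higher in both tumour groups and Lrrn4 lower in BTPRZ-T. Msln had a mean of 3.35 CPM in N, 167 in BT-T, with 157 in BTPRZ-T, while Upk3b had means of 3.54, 1.79 and 0.447 CPM and Lrrn4 of 2.10, 0.507 and 0.012 CPM, so the markers of this list did not move together.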
